A study of Mus musculus with 6 samples.

Results

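Macrophages grown from mouse bone marrow with macrophage colony-stimulating factor (M-CSF, the cells here called M-BMDM) were compared after 24 h of interleukin-6 (IL6) with M-BMDM that had no IL6. The comparison used 2 of the 6 RNA sequencing libraries of the series, 1 on each side, and every row of the gene table that carried a gene name. The table names 55536 genes, of which 25518 were seen at all in the 6 libraries, 14719 reached 1 scaled CPM in at least 1 library and were analysed, and 10313 reached 5 CPM in the control or the 24 h library. CPM is a gene's count for each 1000000 counts of its library, after scaling by TMM, a method that centres the bulk of genes, and it is not corrected for gene length. All mice were C57BL/6 and 8 weeks old, both cultures lasted 7 days, and no genetic change is named in the labels. The control group was M-BMDM without IL6, the main group M-BMDM with IL6 for 24 h, and a further library held M-BMDM with IL6 for 3 h. Uncultured bone marrow cells (BM) and macrophages grown with granulocyte-macrophage colony-stimulating factor (GM-BMDM), without IL6 or with it for 3 h, made up the rest. Neither the dose of IL6 nor the hour at which the control was harvested is stated in the labels. No library of M-BMDM kept for the same 24 h without IL6 is among the samples, so the effect of IL6 and that of time in culture, of harvest or of 1 culture cannot be told apart.

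IL6 is a cytokine that binds its receptor IL6RA and the shared signalling chain gp130, encoded by Il6st. The bound chains activate JAK kinases, which phosphorylate transcription factors of the STAT family, and STAT3 switches on Socs3, an inhibitor that then blocks gp130. M-CSF, through its receptor Csf1r, is the factor that keeps bone marrow macrophages alive and lets them divide, and macrophages respond to IL6 with changes in cytokine output, scavenging and metabolism that depend on what else they receive.

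The libraries held 18567482 counts (control), 22694865 (3 h) and 21848228 (24 h), and with 1 library a side every interval below is an exact 95% interval for counting error only. To be counted as higher or lower, a gene needed a ratio of 2-fold or more, an interval without equality and 5 CPM in the higher library. The labels do not say whether the libraries came from separate cultures or animals. All 14 macrophage markers, among them Adgre1 (896 CPM in the control and 1114 at 24 h), Cd68 (1038 and 846) and Lyz2 (26026 and 20120), were above 1 CPM in all M-BMDM libraries. The summed level of that list was 46975 CPM in the control, 53650 at 3 h and 37943 at 24 h. Neutrophil markers summed to 67.1, 70.2 and 17.8 CPM, of which Mmp9, a protease that macrophages also make, gave 53 CPM in the control, and of the 14 neutrophil genes 4 had 0 counts in the control and 3 (Retnlg, Elane and Ly6g) at 24 h. Monocyte markers summed to 419, 433 and 203 CPM. Stem and progenitor markers summed to 23.8, 20.8 and 48.4 CPM, and Cd34 made up 31.3 CPM of the last. Lists for B lineage, dendritic, T and NK, erythroid and mast cells each stayed at or under 10.4 CPM in the 3 libraries, and stromal markers summed to 25.1, 17.5 and 15.4 CPM. The part of these other cell types in the results below was not tested.

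The 24 h library stood well apart from the other M-BMDM libraries. Between it and the control, 1186 of 10313 genes (11.5%) were counted as higher and 921 (8.93%) as lower. The 3 h library, set against the same control, gave 9 of 9937 genes (0.0906%) higher and 27 (0.272%) lower, and in GM-BMDM the same 3 h gave 6 of 10255 (0.0585%) higher and 11 (0.107%) lower. The median size of the log2 ratio was 0.44 at 24 h and 0.13 at 3 h, and the 95th percentile was 2.27 and 0.41. Set against the 3 h library instead, the 24 h library had 1204 genes (11.7%) higher and 883 (8.59%) lower. Genes counted as higher had a median level of 9.91 CPM in the control and 36.3 CPM at 24 h, and 403 of them were at least 4-fold higher. Genes counted as lower went from a median of 43.3 CPM to 13.1 CPM, and 269 of them were at least 4-fold lower. Just inside the 2-fold limit, at log2 sizes of 1.0 to 1.1, stood 287 genes, and 348 stood just outside it, at 0.9 to 1.0. In bulk RNA, fewer cells of a type and less RNA of a gene per cell cannot be told apart. Scaling by total counts, without TMM, moved the median of tested genes from 0.02 to 0.16 on the log2 scale and gave 1463 genes higher and 757 lower.

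**Figure D1:**
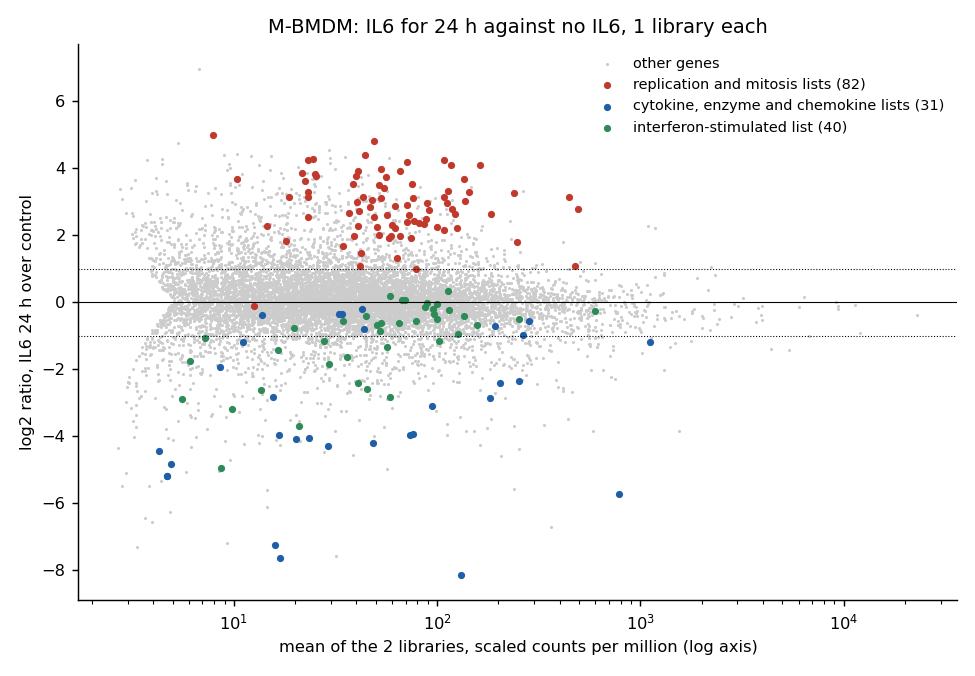
Each point is 1 of the genes at 5 CPM or more, with its mean level in the control and 24 h libraries on the horizontal log axis (scaled CPM) and its log2 ratio, 24 h over control, on the vertical axis; dotted lines mark 2-fold. Of the 82 genes of the replication and mitosis lists (red), 80 lie above the upper line, while most cytokine, enzyme and chemokine genes (blue) lie below the lower line.

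Among the gene lists, the most uniform differences were in DNA replication and, described after it, mitosis. The gene lists here and below were chosen with earlier results of these data known, so their counts are no test. Some genes belong to several lists, so the counts of lists that share genes are not separate results. Of 40 listed genes for replication and nucleotide synthesis, all at 5 CPM or more, 39 were higher at 24 h and none was lower. The median log2 ratio was 3.20, where the median of all 14719 genes analysed was 0. The summed level of the 40 listed genes was 1003 CPM in the control, 1071 CPM at 3 h and 5502 CPM at 24 h. Uncultured marrow reached 5612 CPM by the same sum, and the GM-BMDM libraries 1381 and 1425 CPM. Mcm7 (chr5:138164583-138172422 on GRCm38), a subunit of the helicase that opens DNA for replication, had 10.7 CPM in the control, 15.8 at 3 h and 204 at 24 h. The 24 h level was 19.1-fold that of the control (log2 ratio 4.26, 4.05 to 4.47), whereas the 3 h level was within 2-fold of it. Pole (chr5:110286306-110337474), the catalytic subunit of the leading-strand polymerase, had 3.33, 5.71 and 94.3 CPM, a 28.3-fold difference at 24 h. Cdc6 (chr11:98907801-98923940), which loads the helicase onto origins, had 2.31, 3.08 and 44.1 CPM (log2 ratio 4.26, 3.82 to 4.73). These 3 genes were each low in the control and the 3 h library and high at 24 h. The exception in the list was Cdt1, the partner of Cdc6 in loading the helicase. It had 52.5, 58.9 and 105 CPM, and its log2 ratio of 1.00 (0.89 to 1.11) fell just short of 2-fold.

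The other helicase subunits, named here after their values were seen, gave the same picture. Mcm2 to Mcm6 ran from 16.8 to 50.9 CPM in the control and from 124 to 319 CPM at 24 h, with log2 ratios between 2.61 (Mcm4) and 3.67 (Mcm5). Pcna, the clamp that holds polymerases on DNA, differed less, with 306, 307 and 649 CPM (log2 ratio 1.09, 1.04 to 1.13). Rrm2, the inducible subunit of ribonucleotide reductase, had 18.0, 21.6 and 308 CPM (log2 ratio 4.10).

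Genes of mitosis followed the same course. Of 42 listed genes, 41 were higher at 24 h, none was lower, and the median log2 ratio was 2.76. The list summed to 958 CPM in the control, 933 at 3 h and 6214 at 24 h, beside 6556 CPM in marrow. Cenpk (chr13:104228611-104252392), a part of the kinetochore, had 0.483, 1.22 and 15.3 CPM, the highest ratio of any gene the naming rule allowed (log2 4.98, 4.04 to 6.12), although the control held 9 counts. Mybl2 (chr2:163054687-163084688), a transcription factor of dividing cells, had 2.42, 2.67 and 46.7 CPM. Ncaph (chr2:127103809-127133954), a condensin subunit that compacts chromosomes, had 8.11, 8.66 and 124 CPM. Aurkb (chr11:69045647-69051664), the kinase that corrects chromosome attachment, had 7.84, 6.98 and 105 CPM (log2 ratio 3.74, 3.50 to 3.99). For these 4 genes the control and 3 h values were low and the 24 h value was high. The proliferation marker Mki67, named after its value was seen, had 126, 111 and 860 CPM. The single exception was Pttg1, the securin that restrains separation of sister chromatids, with 13, 12.7 and 12.1 CPM (log2 ratio -0.11, -0.36 to 0.15).

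The 15 highest ratios at 24 h were mostly of genes that act in S phase and mitosis. Beside those above they held Esco2, which holds sister chromatids together (2.42, 2.27 and 56.4 CPM), Ska1, a microtubule-binding kinetochore protein (0.913, 1.59 and 19.8), and E2f8, a repressor of the E2F family (5.53, 7.71 and 111). Dtl, which marks Cdt1 for destruction, had 2.85, 3.90 and 56.8 CPM, and Tcf19 had 3.33, 2.95 and 67.4 CPM. Not all were cell cycle genes by name. Pcyt1b, an enzyme of phosphatidylcholine synthesis, had 0.376, 0.181 and 10.2 CPM, from 7 counts in the control. Nanos1, an RNA-binding protein, had 1.13, 1.04 and 23.2 CPM, the nutrient-sensing kinase gene Pask 1.40, 2.49 and 29.1 CPM, and Fam214a 0.805, 1.22 and 17.1 CPM.

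**Figure D2:**
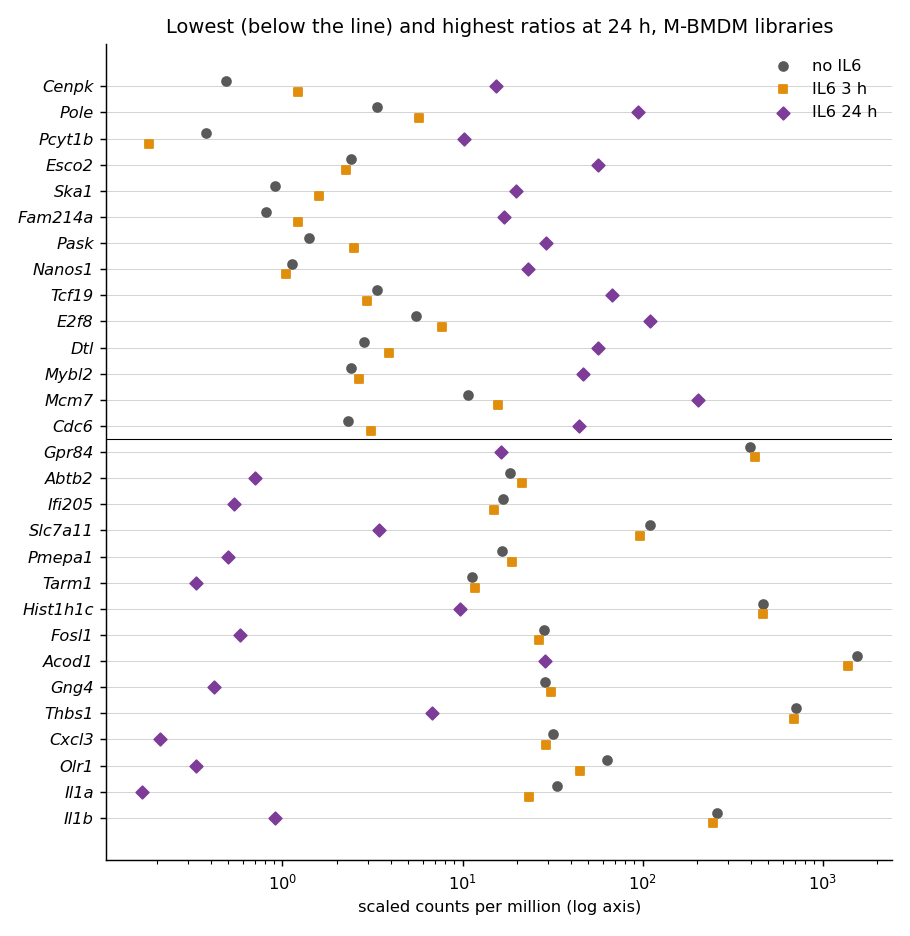
Scaled CPM (log axis) of 14 of the 15 genes with the highest ratios at 24 h and of the 15 with the lowest, with 1 point for each M-BMDM library: no IL6, IL6 for 3 h and IL6 for 24 h. In each row the 24 h point stands apart, such as Il1b at 260 and 246 against 0.913 CPM and Mcm7 at 10.7 and 15.8 against 204 CPM. The other 2 points lie within 2-fold of each other except for Cenpk (0.483 and 1.22 CPM) and Pcyt1b (0.376 and 0.181 CPM), both on few counts.

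Cyclins, cyclin-dependent kinases and their inhibitors were mixed. Of 18 such genes at 5 CPM, 9 were higher and 2 lower, with a median log2 ratio of 0.89. Among the higher genes were brakes on the cycle as well as drivers. Rbl1, a relative of the retinoblastoma protein, had 19.8, 14.1 and 139 CPM (log2 ratio 2.81), and Cdkn2c, an inhibitor of CDK4 and CDK6, had 25, 22 and 143 CPM (log2 ratio 2.52). Cdk2, named after its value was seen, had 21.0, 25.5 and 87.6 CPM. The D cyclin Ccnd2 (chr6:127125162-127152193), a partner of CDK4 and CDK6 that growth factors induce, was lower, at 97.0, 97.5 and 17.9 CPM (log2 ratio -2.43, -2.59 to -2.28). Cdkn1c, which was the other lower gene, had 39.7, 48.6 and 9.63 CPM. The D cyclin Ccnd1 had 569, 597 and 300 CPM, a log2 ratio of -0.92 that did not reach 2-fold. Of 18 p53 target genes at 5 CPM, 6 were higher and 2 lower (median log2 ratio 0.62). Phlda3, an inhibitor of the kinase AKT, had 2.58, 2.49 and 14.9 CPM, Trp53inp1 9.83, 7.71 and 53.8 CPM, and Sesn1, a stress-induced inhibitor of mTORC1, 29.3, 29.4 and 126 CPM. Ccng2, a cyclin found in resting cells, had 10.2, 9.61 and 53.6 CPM. Fas, the death receptor, was lower at 18.4, 15.8 and 4.32 CPM. Cdkn1a, the best known p53 target, had 201, 221 and 266 CPM and was not counted.

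Promoters of the replication and mitosis genes were read for the sites of the factors known to drive them, and 3 are shown because they carry the letters searched for. They are the 250 bases before the gene start in RefSeq's promoter table (GRCm38.p6), 5′ to 3′ on the gene's strand, with the match in capitals. E2F, the factor family that retinoblastoma proteins restrain, was searched as TTTCCCGC, TTTGGCGC, TTTCGCGC and TTTGCCGC, which can overlap one another, and the CHR element of mitotic genes as TTTGAA, all on both strands. Mcm5 (chr8:75109259-75109508, plus strand) held 2 E2F matches that overlap, and Ncapg (chr5:45669675-45669924, plus strand) and Kif11 (chr19:37376132-37376381, plus strand), a condensin and a mitotic motor gene, held 1 CHR match each. RefSeq and GENCODE can place a gene's start differently, and at the promoters printed here and below they lie at most 60 bases apart.
Mcm5: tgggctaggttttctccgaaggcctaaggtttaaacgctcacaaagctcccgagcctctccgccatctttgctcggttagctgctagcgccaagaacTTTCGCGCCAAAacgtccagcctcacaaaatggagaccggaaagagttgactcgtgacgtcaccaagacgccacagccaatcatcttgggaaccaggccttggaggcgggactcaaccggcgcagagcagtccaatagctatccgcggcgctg
Ncapg: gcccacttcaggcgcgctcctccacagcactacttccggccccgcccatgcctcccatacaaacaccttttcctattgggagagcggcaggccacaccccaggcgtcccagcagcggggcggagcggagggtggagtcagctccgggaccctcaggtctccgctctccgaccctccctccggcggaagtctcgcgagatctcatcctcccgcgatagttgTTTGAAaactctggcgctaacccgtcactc
Kif11: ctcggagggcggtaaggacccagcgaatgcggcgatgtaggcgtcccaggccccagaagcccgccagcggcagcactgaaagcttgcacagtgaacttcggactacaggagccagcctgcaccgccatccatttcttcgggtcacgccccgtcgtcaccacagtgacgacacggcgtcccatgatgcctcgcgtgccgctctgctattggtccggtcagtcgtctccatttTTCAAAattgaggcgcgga

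Ncapg and Kif11 had 8.48 and 20.5 CPM in the control, 7.53 and 17.5 CPM at 3 h and 95.6 and 205 CPM at 24 h. Of 10293 gene symbols at 5 CPM, 6469 had a single start in the promoter table and could be searched. An E2F match stood in 7.995% of the 738 promoters of genes counted as higher, in 2.664% of the 563 of genes counted as lower and in 3.715% of the other 5168, and in 1.933% of all 22862 promoters of the table. CHR matches stood in 14.5%, 9.591% and 10.06%, with 16.73% in the whole table. The letters CCAAT, bound by NF-Y, stood in 48.24%, 32.33% and 36.84%, with 34.7% in the whole table. Within the mitosis list, 12 of 34 promoters (35.29%) held CHR and 25 (73.53%) CCAAT, and within the replication list 5 of 27 (18.52%) held E2F and 16 (59.26%) CCAAT. A match is a run of letters and no measure of binding.

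**Figure D3:**
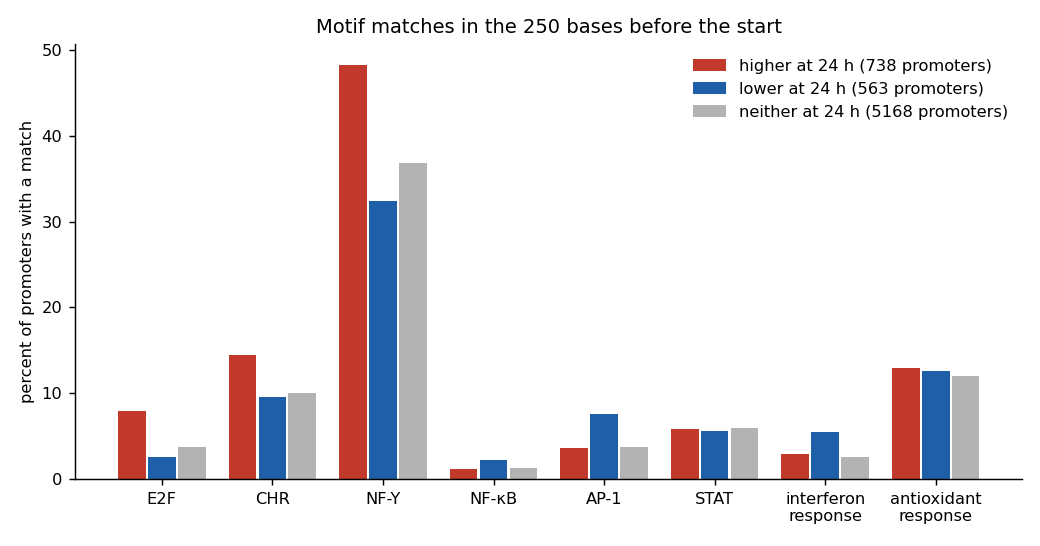
Share of promoters with at least 1 match (percent, vertical axis) in the 250 bases before the start, for 8 motifs and for genes counted as higher (red, 738), lower (blue, 563) or neither (grey, 5168) at 24 h. Matches of E2F, CHR and NF-Y were more frequent in red than in grey, and those of NF-κB, AP-1 and the interferon response in blue than in grey; these are counts with no test.

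Genes of inflammation stood at the other end. The list of pro-inflammatory cytokines and enzymes also holds the antagonist Il1rn and the growth factor Csf1, both counted as lower. It holds Il10 and Tgfb1 too, which were not counted. Of the list's 13 genes at 5 CPM, 10 were lower at 24 h and none was higher. The median log2 ratio over the 20 analysed was -2.61. Over the 19 with more than 3 counts in either library, a gene at 0 being set to its bound against 3 counts, it was -3.09. The lowest ratio of all named genes was that of Il1b (chr2:129364570-129371139), which encodes interleukin-1β, with 260 CPM in the control, 246 at 3 h and 0.913 at 24 h. That is 284-fold lower at 24 h (log2 ratio -8.15, -8.83 to -7.55), on 4838 counts against 22. Its neighbour Il1a (chr2:129299610-129309972) had 33.5, 23.5 and 0.166 CPM, and Il1rn (chr2:24336853-24351494), the secreted antagonist of both, 143, 167 and 9.22 CPM. Both agonists and their antagonist were thus low at 24 h alone. Acod1 (chr14:103046977-103056573), which makes itaconate, had 1548, 1377 and 28.9 CPM, 53.6-fold lower at 24 h. Ptgs2 (chr1:150100031-150108227), the inducible cyclooxygenase, had 38.0, 32.0 and 2.24 CPM, and Ptges, which turns its product into prostaglandin E2, 44.0, 45.8 and 2.62 CPM. Tnf, named after its value was seen, had 169, 145 and 19.8 CPM (log2 ratio -3.09, -3.23 to -2.95).

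Chemokines were lower in the same way. Of 18 ligands at 5 CPM, 13 were lower and none was higher (median log2 ratio -2.37, or -2.77 with bounds over the 20 with more than 3 counts). Cxcl3 (chr5:90786103-90789600), a neutrophil attractant, had 31.8, 29.2 and 0.208 CPM, 153-fold lower at 24 h on 592 counts against 5. Ccl22, which draws T cells, had 9.18, 9.75 and 0.249 CPM, Ccl12, a monocyte attractant, 9.50, 9.88 and 0.332 CPM, and Ppbp 9.18, 7.93 and 0.249 CPM. Ppbp is also a platelet gene, and the platelet list summed to 49.8, 54.0 and 31.1 CPM. Ccl2, the main monocyte attractant, named after its value was seen, had 321, 278 and 44.4 CPM. Reads can be split between similar chemokine genes in ways that the table does not record. The NF-κB site, searched on both strands as GGG, any 2 bases and TTTCC, stood in 4 of 13 chemokine promoters that could be read (30.77%). It stood in 1.391% of all promoters of the table. The 4 chemokine genes with a site were all counted as lower, as were 13 of the 18 ligands at 5 CPM. The pair shown are neighbours on the chromosome, Cxcl3 (chr5:90785851-90786100, plus strand), with 1 match, and Cxcl1 (chr5:90890995-90891244, plus strand), with 2, the matches in capitals.
Cxcl3: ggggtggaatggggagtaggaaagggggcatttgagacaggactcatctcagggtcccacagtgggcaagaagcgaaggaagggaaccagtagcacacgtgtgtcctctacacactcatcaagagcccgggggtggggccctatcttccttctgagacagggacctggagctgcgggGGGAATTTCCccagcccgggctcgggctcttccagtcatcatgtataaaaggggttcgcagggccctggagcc
Cxcl1: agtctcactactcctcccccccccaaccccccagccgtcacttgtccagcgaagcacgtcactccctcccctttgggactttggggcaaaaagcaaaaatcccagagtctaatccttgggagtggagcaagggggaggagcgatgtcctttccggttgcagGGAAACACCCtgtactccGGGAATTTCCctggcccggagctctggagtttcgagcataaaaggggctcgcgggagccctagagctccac

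Cxcl1, a neutrophil attractant like Cxcl3, had 8.22, 5.80 and 0.374 CPM. Over all genes, an NF-κB match stood in 13 of 563 promoters of genes counted as lower (2.309%), the 4 chemokine genes among them. It stood in 70 of 5168 of those counted as neither (1.354%). Chemoattractant receptors varied more, with 7 of 16 lower and 2 higher (median log2 ratio -0.60). Ccrl2, an atypical receptor that presents chemerin, had 23, 21.9 and 4.77 CPM, and the formyl peptide receptors Fpr1 and Fpr2 had 17.2, 16.6 and 3.86 CPM and 8.64, 9.84 and 2.03 CPM. Cmklr1, the chemerin receptor, had 22.9, 21.2 and 6.23 CPM. The receptors counted as higher were Cxcr3 (3.06, 3.26 and 7.72 CPM) and Cxcr4, the receptor of CXCL12 (45.9, 48.1 and 108 CPM), both named after their values were seen.

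Genes of the NF-κB pathway and immediate early genes were lower too. Of 20 genes for NF-κB subunits and feedback regulators, 11 were lower and none higher (median log2 ratio -1.14). Tnfaip3, which encodes the ubiquitin-editing inhibitor A20, had 155, 145 and 24.8 CPM (log2 ratio -2.64, -2.77 to -2.51). Nfkbia and Nfkbie, which encode inhibitors that hold NF-κB in the cytoplasm, had 247, 233 and 65.3 CPM and 96.5, 99.4 and 20.1 CPM, and the subunit gene Nfkb2 had 230, 260 and 61.6 CPM. Of 26 AP-1, EGR and other immediate early genes at 5 CPM, 18 were lower and 1 was higher, the antiproliferative gene Btg2 at 16.1, 14.9 and 35.3 CPM. Fosl1 (chr19:5447547-5455946), a FOS-family partner of JUN, had 28.5, 26.4 and 0.581 CPM, 49.0-fold lower at 24 h. Dusp5, a nuclear phosphatase of ERK, had 73.6, 68.0 and 3.07 CPM, the small MAF gene Maff 25.2, 26.2 and 1.37 CPM, and Phlda1 34.6, 33.1 and 3.03 CPM. AP-1 letters (TGANTCA, both strands) stood in 7.638% of the promoters of genes counted as lower, 3.735% of those counted as neither and 6.964% of the whole table.

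Interferon-stimulated genes split. Of 41 at 5 CPM, 17 were lower, none was higher and 24 were not counted, with a median log2 ratio of -0.70. Ifi205 (chr1:174011998-174031810), of the DNA-sensing IFI200 family, had 16.7, 14.9 and 0.540 CPM, and Cxcl10 (chr5:92346638-92348889), which draws T cells, had 55.1, 42.1 and 2.82 CPM, 19.5-fold lower at 24 h. Cxcl10 is also counted in the chemokine list. Mx1, an antiviral GTPase, had 38.9, 27.6 and 2.99 CPM, and Ifit3b 17.6, 12.7 and 1.91 CPM. Of 10 guanylate-binding and related GTPases 5 were lower and none was higher, among them Gbp5 (26.0, 22.6 and 2.28 CPM), Gbp2 (62.0, 61.2 and 11.7), Gbp3 (24.1, 21.0 and 7.35) and Tgtp2 (14, 11.7 and 4.40). Their median log2 ratio was -1.23, or -1.37 with bounds over the 15 with more than 3 counts. Members of the Ifi200, Ifit and Gbp families resemble one another, so the estimated counts of single members are uncertain. The core that interferon response factors bind, searched on both strands as GAAA, any 2 bases and GAAA, stood in 12 of 24 promoters of this list (50%), 7 of genes counted as lower and 5 of genes not counted, against 3.11% of the whole table. Over all genes it stood in 5.506% of the promoters of genes counted as lower and 2.593% of those counted as neither. Cxcl10 (chr5:92348890-92349139, minus strand) is shown with its 1 match in capitals.
Cxcl10: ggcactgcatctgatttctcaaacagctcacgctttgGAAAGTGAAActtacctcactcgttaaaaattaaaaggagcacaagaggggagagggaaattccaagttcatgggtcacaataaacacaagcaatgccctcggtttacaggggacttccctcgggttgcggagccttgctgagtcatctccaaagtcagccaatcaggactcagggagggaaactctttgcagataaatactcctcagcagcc

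Most genes of the MHC class II presentation list were lower. That list also holds the co-stimulatory genes Cd86, Cd80 and Cd40, all counted as lower and included in the counts that follow. Of 12 genes at 5 CPM, 10 were lower and none higher (median log2 ratio -1.54). Cd86 (chr16:36603869-36666081) and Cd40 (chr2:165055627-165072948), which give and receive co-stimulation with T cells, had 91.7, 94.9 and 5.77 CPM and 47.9, 53.9 and 5.98 CPM. The class II chains H2-Ab1 and H2-Eb1 had 281, 326 and 45.1 CPM and 160, 173 and 30.3 CPM, log2 ratios of -2.64 (-2.74 to -2.55) and -2.40 (-2.52 to -2.29). Both were slightly above the control at 3 h and far under it at 24 h. Class I genes had 2 of 18 lower, near the share of all genes, H2-Q6 (17.6, 17.1 and 2.49 CPM) and H2-Q7 (20.0, 21.9 and 4.61 CPM), near-identical genes whose reads may be shared, and a median log2 ratio of -0.63.

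**Figure D4:**
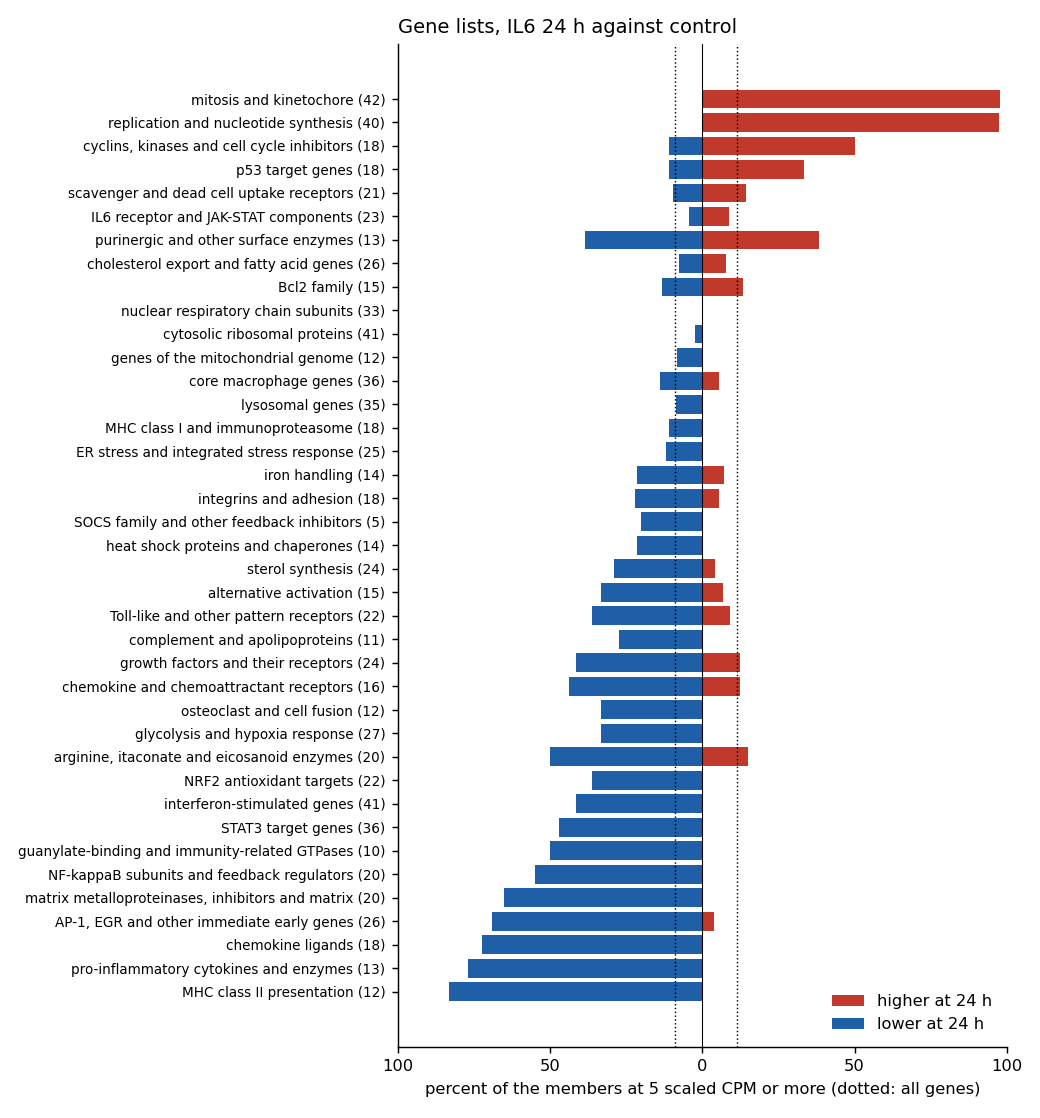
Percent of each gene list's members at 5 CPM or more (number in brackets) that were counted as higher (red, to the right) or lower (blue, to the left) at 24 h; dotted lines mark the share of all genes, 11.5% higher and 8.93% lower. Replication and mitosis stand at the top with 39 of 40 and 41 of 42 higher, and the nuclear respiratory chain has no bar. The MHC class II list, which includes co-stimulatory genes, stands at the bottom with 10 of 12 lower. Lists were chosen with earlier results of these data known, so the shares are no test.

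The IL6 pathway's own components were near the control apart from a few. Of 23 receptor and JAK-STAT genes at 5 CPM, 2 were higher and 1 was lower, shares below those of all genes, and the median log2 ratio was 0.02. That median changed sign, and 2 genes were lower, under DESeq2 size factors, upper-quartile factors or removal of the GC or length trend. The receptor genes Il6ra (59.1, 60.7 and 96.5 CPM) and Il6st (97.5, 95.8 and 121 CPM) had log2 ratios of 0.71 (0.60 to 0.81) and 0.32 (0.23 to 0.40), under 2-fold. Stat3 (chr11:100885098-100939540) had 148, 160 and 132 CPM and Jak1 206, 211 and 199 CPM, all 3 libraries close together. Jak2 (chr19:29251828-29313080), a kinase that serves gp130 and many cytokine receptors, was the lower gene, with 125, 112 and 34.8 CPM (log2 ratio -1.84, -1.96 to -1.73). The higher genes were Lifr, the receptor chain for leukaemia inhibitory factor (5.53, 5.98 and 15.4 CPM), and Pias3, an inhibitor of STAT3 (13.7, 15.9 and 34.5 CPM). Socs3 (chr11:117966079-117970047) had 102 CPM in the control, 99.3 at 3 h and 7.60 at 24 h. Its log2 ratio was -0.03 (-0.12 to 0.06) at 3 h and -3.74 (-3.97 to -3.52) at 24 h, 13.4-fold lower. It was the 1 gene counted among 5 of the SOCS list at 5 CPM. Socs1 (4.08, 3.81 and 0.789 CPM) and Cish (0.966, 0.544 and 0.249 CPM), 2 more inhibitors of the family, were under 5 CPM in all 3 libraries.

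The STAT letters TTCNNNGAA, searched on both strands, stood in 5.827% of the promoters of genes counted as higher, 5.684% of those lower, 5.94% of the others and 7.226% of the whole table. Of 36 known STAT3 target genes at 5 CPM, 17 were lower at 24 h, none was higher, and the median log2 ratio was -0.92. At 3 h none was counted. The lower genes overlap with lists above, so they are not a separate result. Fos, Junb, Fosl2, Myc and Ier3 are also immediate early genes of that list. Il1rn and Ptges are in the pro-inflammatory list and Socs3 in the SOCS list. Tgm2, a crosslinking enzyme, had 2897, 3305 and 201 CPM (log2 ratio -3.85, -3.89 to -3.81). The acute phase gene Hp had 9.45, 11.7 and 0.540 CPM and Vegfa (chr17:46016993-46032369), the angiogenic growth factor, 260, 221 and 17.9 CPM. Bcl3, an NF-κB cofactor and STAT3 target, had 33.2, 31.9 and 17.7 CPM (log2 ratio -0.91) and was not counted. The Il6 gene itself held 7 counts in the control, 12 at 3 h and 0 at 24 h, too few to compare. Csf1r, the M-CSF receptor, had 3234, 3406 and 2363 CPM (log2 ratio -0.45, -0.47 to -0.44).

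**Figure D5:**
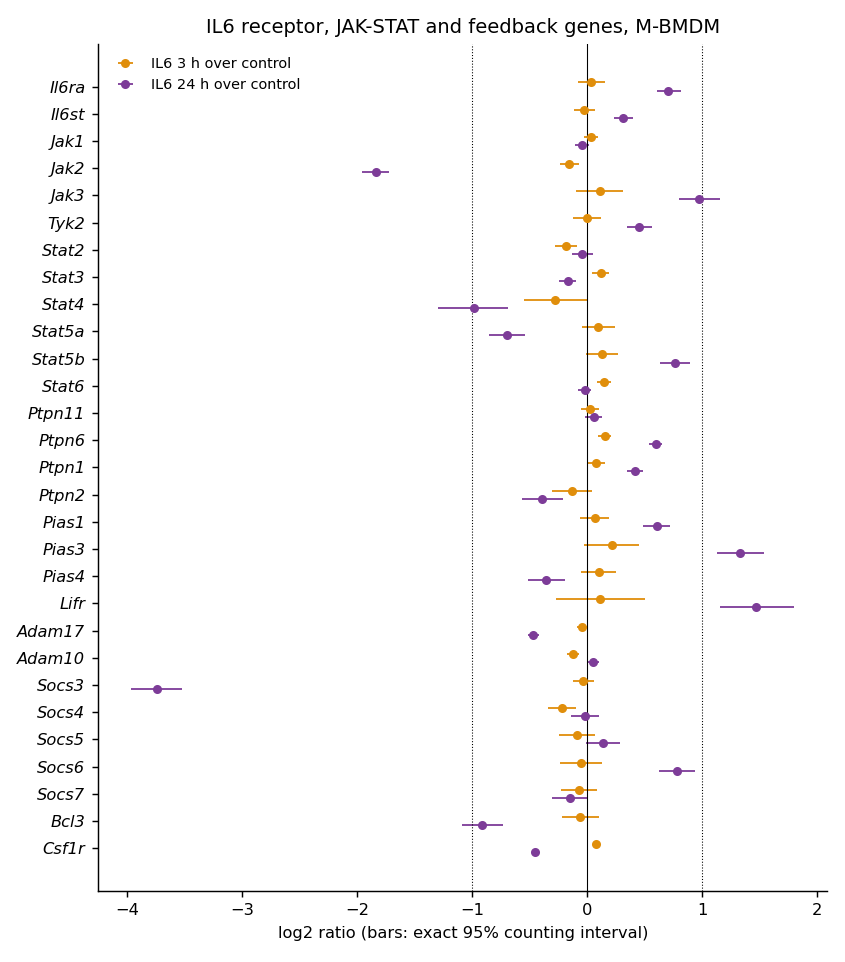
Log2 ratio to the control (horizontal axis) after 3 h (orange) and 24 h (purple) of IL6 for receptor, JAK-STAT and SOCS genes at 5 CPM and for Bcl3 and Csf1r; bars are exact 95% counting intervals and dotted lines mark 2-fold. The 3 h points lie near 0, and at 24 h Socs3 stands at -3.74 and Jak2 at -1.84 while Lifr reaches 1.47 and Pias3 1.33.

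Of 36 core macrophage genes, 29 were not counted, 5 were lower and 2 were higher (median log2 ratio -0.35), beside 11.5% higher and 8.93% lower of all genes. The count of lower genes depended on the scaling. It was 7 with DESeq2 size factors, upper-quartile factors or the GC trend removed, and 4 with total counts or the level trend removed. Mertk (chr2:128698956-128802894), the receptor for eating dead cells, had 7.68, 9.79 and 48.2 CPM (log2 ratio 2.65, 2.40 to 2.91), and Tlr4, named after its value was seen, had 100, 90.9 and 249 CPM. The lower genes held Tlr2, a receptor for bacterial lipoproteins (524, 511 and 96.0 CPM), Fcgr2b, the inhibitory Fc receptor (84.8, 74.1 and 19.9 CPM), and Cd14, which hands endotoxin to TLR4 (1506, 1797 and 530 CPM). Of 22 pattern receptors, 8 were lower and 2 higher. Clec4e, a lectin for mycobacterial glycolipid, had 1095, 1050 and 76.2 CPM (log2 ratio -3.84), Nod2 27.5, 21.9 and 4.86 CPM and the inflammasome sensor Nlrp3 344, 326 and 64.3 CPM. Tlr7, a sensor of RNA and the other higher gene of that list, had 69.7, 57.1 and 184 CPM and was named after its value was seen.

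Of 21 scavenger and dead cell uptake receptors 3 were higher and 2 lower, shares near those of all genes. Olr1 (chr6:129485244-129507165), a receptor for oxidised LDL, had 63.3, 45.2 and 0.332 CPM, 191-fold lower at 24 h. Cd5l, a lipid-binding protein of tissue macrophages, had 2.20, 2.22 and 15.2 CPM, and Lrp1, named after its value was seen, 1440, 1501 and 3007 CPM. Scaling by total counts gave 5 of 21 higher. Among alternative activation genes, 1 of 15 was higher and 5 were lower, with 3 higher under total counts and 2 against the 3 h library or with the level trend removed. Of the lower genes, Ccl22, Egr2 and Tgm2 are also counted in lists above. Folr2, a folate receptor of resident macrophages, was the higher one at 19.4, 29.7 and 78.9 CPM, and Arg1, an enzyme that breaks down arginine, had 5.64, 7.75 and 0.623 CPM. Complement and apolipoprotein genes held 3 lower of 11, C3 (503, 513 and 159 CPM), Apoc2 (117, 114 and 33.2 CPM) and Cfb (10.4, 9.02 and 2.70 CPM), while C1qa, a subunit of the first complement component named after its value was seen, had 246, 306 and 263 CPM. Of 35 lysosomal genes 3 were lower, Ctsk (8.86, 8.89 and 3.28 CPM), Ctsz (1557, 1757 and 658 CPM) and Psap (9017, 9442 and 4445 CPM), close to the share of all genes. With the trend on expression level removed, 1 of 35 was higher and 1 was lower.

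Lipid and iron lists held few higher genes, no more than the share of all genes. Abcg1 (chr17:31057675-31117988), which exports cholesterol to HDL, had 16.3, 16.8 and 145 CPM (log2 ratio 3.15, 2.98 to 3.32), and Lpin1, a phosphatidate phosphatase, 3.97, 4.17 and 15.3 CPM. They were the 2 higher of 26 genes of cholesterol export and fatty acids, and the lower ones were Nr1h3, the receptor LXRα that senses oxysterols (33.6, 41.3 and 14.9 CPM), and Scd1, a desaturase (10.9, 12.2 and 4.86 CPM). Sterol synthesis had 7 of 24 lower and 1 higher (median log2 ratio -0.54). Sqle, Hmgcs1 and Hsd17b7, enzymes of the pathway, had 193, 207 and 59.7 CPM, 204, 193 and 67.3 CPM, and 71.0, 68.6 and 14.2 CPM. Slc40a1 (chr1:45908068-45926523), which encodes ferroportin, the exporter of iron, was the 1 higher of 14 iron genes, at 11.4, 11.5 and 95.7 CPM, 8.41-fold higher at 24 h. The 3 lower genes were the transporters Slc39a14 (131, 139 and 36.0 CPM) and Slc11a1 (460, 512 and 185 CPM) and the ferroxidase gene Cp (13.5, 12.2 and 4.07 CPM). Against the 3 h library, 5 of the 14 were lower.

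Metabolic gene lists differed by pathway. Of 27 genes of glycolysis and the hypoxia response, 9 were lower and none was higher (median log2 ratio -0.57). Those with the largest ratios were Vegfa, given above, Egln3, Slc2a1 and Hif1a, none of them a glycolytic enzyme. Hif1a (chr12:73901375-73947530), the hypoxia factor, had 721, 645 and 113 CPM, and Slc2a1, the glucose transporter GLUT1, 379, 429 and 52.4 CPM. Egln3, a prolyl hydroxylase induced by that factor, had 11.9, 20.4 and 1.08 CPM. None of 33 nuclear genes of the respiratory chain was counted (median log2 ratio 0.06); their most abundant member, Atp5b, had 621, 691 and 586 CPM. Of 41 cytosolic ribosomal protein genes 1 was counted, Rpl5, as lower (48.2, 46.2 and 22.7 CPM), a gene with many pseudogene copies. Of 12 mitochondrial genome transcripts, mt-Co2 was counted as lower, with 231, 133 and 95.9 CPM. It had a log2 ratio of -0.80 at 3 h, and against the 3 h library it was no longer counted. In GM-BMDM, mt-Co2 was also counted as lower at 3 h, with 203 CPM without IL6 and 81.5 CPM with it. Arginine and eicosanoid enzymes had 10 of 20 lower and 3 higher (median log2 ratio -0.65, or -1.55 with bounds over the 21 with more than 3 counts). Acod1, Ptgs2 and Ptges, among the lower ones, are also counted in the pro-inflammatory list. The arginine transporter gene Slc7a2 had 210, 188 and 13.4 CPM, and Odc1, which starts polyamine synthesis and was named after its value was seen, 622, 620 and 48.3 CPM. The higher ones, also named after their values were seen, were Hpgd, which inactivates prostaglandins (7.95, 8.12 and 58.5 CPM), the prostaglandin D synthase gene Hpgds (57.4, 48.0 and 177 CPM) and the constitutive cyclooxygenase gene Ptgs1 (86.9, 83.6 and 187 CPM). Ptgs2 and Ptges were thus among the lower genes, and Ptgs1 and Hpgd among the higher ones.

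Of 22 NRF2 antioxidant targets, 8 were lower and none was higher (median log2 ratio -0.85). Slc7a11 (chr3:49892526-50443614), the cystine importer for glutathione, had 110, 96.5 and 3.45 CPM, 31.9-fold lower. Srxn1, which repairs peroxiredoxins, had 380, 391 and 103 CPM, the metallothionein Mt2 100, 113 and 13.5 CPM and Gsta3 11.3, 8.43 and 2.53 CPM. The antioxidant response letters TGACNNNGC stood in 13.01% of promoters of higher, 12.61% of lower and 12% of the other genes, and in 10.02% of the table. Heat shock genes and chaperones summed to 4266, 4596 and 5271 CPM. Of 14, none was higher, although 1 was against the 3 h library or with the level trend removed, and 3 were lower, Hspa1b (27.1, 25.3 and 3.74 CPM), Hspa1a (13.3, 16 and 3.90 CPM), whose sequences are nearly the same, and their cochaperone Bag3 (87.1, 97.7 and 36.4 CPM). Of 25 genes of the ER and integrated stress responses, 3 were lower, near the share of all genes, among them the amino acid transporter Slc7a5 (54.7, 65.5 and 9.88 CPM) and the mTORC1 inhibitor Ddit4 (6.01, 6.21 and 2.66 CPM); against the 3 h library, 5 were lower. In the Bcl2 family 2 genes were higher and 2 lower of 15 at 5 CPM, shares near those of all genes. The pro-death genes Bmf (4.73, 7.16 and 23 CPM) and Bbc3 (5.37, 5.89 and 16.8 CPM) were higher, and the pro-survival copies Bcl2a1a (6.07, 6.98 and 1.33 CPM) and Bcl2a1d (14.9, 16.2 and 3.61 CPM), which share sequence, were lower.

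Many genes for matrix and its breakdown were lower. Of 20 genes of proteases, their inhibitors and matrix at 5 CPM, 13 were lower and none higher (median log2 ratio -1.34, or -1.31 with bounds over the 32 with more than 3 counts). Thbs1 (chr2:118111876-118127133), the matrix protein thrombospondin 1, had 716, 696 and 6.81 CPM, 105-fold lower on 13339 counts against 164. Mmp14, a membrane-bound collagenase, had 309, 357 and 16 CPM, Mmp13 76.0, 60.3 and 6.64 CPM, and Plaur, the urokinase receptor, 340, 323 and 30.1 CPM. Of 18 integrin and adhesion genes, 13 were not counted, 4 were lower and 1, Cd34, was higher (6.71, 6.57 and 31.3 CPM). The lower ones were Itga5 of the fibronectin receptor (643, 688 and 127 CPM), the hyaluronan receptor Cd44 (921, 885 and 224 CPM), Icam1 (229, 243 and 73.7 CPM) and Itgb3 (22.6, 25.2 and 8.55 CPM). Osteoclast genes held 4 lower of 12, Ctsk and Itgb3 above, Mmp9 (53, 57.4 and 6.39 CPM) and the kinase gene Src (29.0, 34.5 and 4.73 CPM).

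Growth factors and their receptors had 10 of 24 lower and 3 higher (median log2 ratio -0.69). Csf1 (chr3:107741048-107760469), which encodes M-CSF itself, had 27.3, 22.1 and 3.82 CPM, and the receptor gene Met had 39.8, 37.2 and 2.24 CPM. Inhba, the activin A subunit, had 6.01, 3.67 and 0.581 CPM. The higher genes were Bmp2 (5.05, 4.08 and 19.8 CPM), Kitl (12.5, 12 and 40.7 CPM) and Hgf, the ligand of MET (9.77, 8.30 and 20.9 CPM), named after their values were seen. Genes of extracellular purines split evenly among 13, with 5 lower and 5 higher. The adenosine receptors Adora2a (8.54, 7.44 and 0.208 CPM) and Adora2b (36.9, 35.3 and 3.57 CPM) and Nt5e, the enzyme CD73 that makes adenosine (5.75, 5.58 and 0.166 CPM), were lower. The ADP receptor P2ry13 was higher (1.23, 1.18 and 6.56 CPM), as were P2ry12 (1.45, 1.45 and 6.39 CPM), P2ry14 (4.94, 4.17 and 9.92 CPM), the ATP-gated channel P2rx7 (44.7, 42.1 and 94.7 CPM) and Ada, which breaks adenosine down (2.36, 2.40 and 5.60 CPM), these 4 named after their values were seen. The remaining lower genes, also named after their values were seen, were P2ry2, a receptor for ATP and UTP (40.2, 43.2 and 9.84 CPM), and Entpd1, which breaks down ATP (84.2, 79.7 and 36.7 CPM). Nucleotide receptors thus stood on both sides, and both adenosine receptors named were lower. The other lowest ratios were those of the G protein subunit Gng4 (28.7, 31.2 and 0.415 CPM), the fatty acid receptor Gpr84 (394, 420 and 16.3 CPM), Tarm1, a receptor that activates myeloid cells (11.3, 11.8 and 0.332 CPM), Pmepa1, a brake on TGF-β signalling (16.5, 18.8 and 0.498 CPM), the linker histone Hist1h1c (467, 467 and 9.63 CPM) and Abtb2 (18.5, 21.3 and 0.706 CPM).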

How the data were processed

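RNA sequencing libraries of 6 mouse samples, 1 per group, were used as the authors deposited them, as estimated counts per gene (expected counts that need not be whole; 24.7% to 27.7% of values above 0 were not). The submitters' processing notes name HISAT2, StringTie, DESeq2 and the GRCm38 build; versions, settings and use of strand are not stated there or in the labels, so reads of overlapping and antisense genes may be mixed. Of 56278 rows, 742 without a gene name (0.240% to 0.522% of counts) were left out. The 55536 named rows all matched GENCODE M21 by identifier, which gave coordinates, and 233 share a symbol with another.

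Counts were rounded and scaled by TMM (edgeR 4.0.16, R 4.3.3) over all 6 libraries. Totals ran from 18567482 to 24196082. Each ratio of scaled counts to the control has an exact 95% interval (Clopper-Pearson, on the binomial split of a gene's counts between both libraries, scipy 1.17.1). It covers counting error only and leaves out variation between cultures, as each side has 1 library. Molecules were not tagged before amplification as far as the labels say, which the interval does not allow for. No test was made with 1 library a side. A gene was counted at 2-fold, with an interval excluding 1 and 5 CPM in the higher library; 14719 genes with 1 CPM in any library were analysed. A library at 0 was set to 3 counts for a bound. List medians use a prior count of 2 and all members analysed; those with bounds use no prior count and leave out members with 3 counts or fewer in both libraries. The ratios to the control of the 3 h and 24 h libraries share that control library.

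Named genes were the 15 highest and 15 lowest ratios at 10 CPM or more, without predicted, clone-based, receptor-segment or pseudogene names; up to 4 counted members of each of 39 lists by size of ratio, or the most abundant member where none was counted; and Socs3, Stat3, Jak1, Jak2, Il6ra, Il6st, Csf1r, Il6, Bcl3, Cish and Socs1. A few genes that this rule names are not reported here. The members and lists were chosen with earlier results of these data known. Alternatives were DESeq2 1.42.0 size factors, total counts, upper-quartile scaling, other limits of level and fold, no interval, no filter, the 3 h library as reference, and removal of the trend on level; removal of trends on GC content and transcript length was added after the data were seen. The ratios, intervals and limits for counting a gene were tried on simulated counts. Their only noise was counting error, which the interval assumes, and the scaling factors were known. Scaling, lists, promoter searches and trend removal were not tested in this way.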

Additional observations from a re-analysis of the deposited data

Results flagged for a closer look

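Of the 742 rows without a gene name, which the comparison above leaves out, 89 reached 5 CPM in the control or the 24 h library. By the same limits, 11 of them were higher and 19 lower at 24 h. They stand here because they lie outside the genes described above, and they cannot be named from the table.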

How the results depend on the processing

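No paired analysis was possible because each group holds 1 library and the labels give no replicate numbers; for the same reason no replicate could be left out. The 1186 genes higher and 921 lower became 1130 and 958 with DESeq2 size factors, 1463 and 757 with total counts, 1084 and 1021 with upper-quartile factors, 1026 and 763 at a limit of 10 CPM, 1204 and 883 against the 3 h library, and 1113 and 964 with the level trend removed. They were 1569 and 1399 at 1 CPM, 1813 and 1885 without any filter, 2200 and 1827 at 1.5-fold and 403 and 269 at 4-fold, limits that by construction admit more or fewer genes. Without the condition on the interval they were unchanged at 1186 and 921. Genes higher made up 56.3% of those counted, and 65.9% with total counts. With the trend on GC content or on transcript length removed (both added after the data were seen), the counts were 1136 and 956, and 1122 and 970. Of 140 named genes that were counted, 2 were no longer counted with total counts (Psap, Rpl5), 2 with the level trend removed (Ctsz, Psap), 2 against the 3 h library (mt-Co2, Inhba) and 13 at a limit of 10 CPM; none was lost with DESeq2 size factors, upper-quartile factors or the GC and length trends removed. Some list medians near 0 changed sign, and the cause was not tested. For the IL6 receptor and JAK-STAT list the median log2 ratio was -0.011 with DESeq2 size factors, -0.045 with upper-quartile factors, -0.035 with the GC trend removed and -0.044 with the length trend removed. Total counts gave 0.060 for complement genes and 0.011 for iron genes. Removing the level trend gave 0.16 for complement, 0.00450 for lysosomal and 0.037 for mitochondrial genome genes. Upper-quartile factors gave -0.00181 for nuclear respiratory chain genes, and the 3 h library as reference gave -0.0802 for these and -0.11 for ribosomal proteins. In all, 241 list medians stayed within 0.1 of their value, 59 moved by more without changing sign and 12 changed sign. In lists, the count of genes higher or lower also changed by over 1.5 times for ribosomal proteins (0 lower with total counts), sterol synthesis (0 higher against the 3 h library or with the level trend removed), and guanylate-binding and mitochondrial genome genes (1 higher each against the 3 h library). Depth limits genes with few counts, such as Pcyt1b with 7 in the control and Il1a with 4 at 24 h, whose intervals are wide.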

Other observations

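The histone genes that reached 5 CPM, chosen after their values were seen, did not as a set share the direction of the replication genes. Of 17 at 5 CPM, 2 were higher and 9 lower at 24 h. The higher ones encode the variant H2A.Z, which replaces H2A outside replication, H2afz with 186 CPM in the control, 198 at 3 h and 647 at 24 h, and H2afv with 11.9, 15.6 and 65.5 CPM. Only 8 genes of the histone clusters reached 5 CPM, of which none was higher and 6 were lower. The other clustered genes are not described by these counts, so they give no direction for clustered histone genes in general. Hist1h1c (chr13:23738808-23740367), a linker histone, had 467, 467 and 9.63 CPM, 48.4-fold lower at 24 h, and H1f0, the linker histone of resting cells, had 330, 318 and 24.2 CPM. Hist1h1d had 7.46, 4.13 and 0.166 CPM and Hist1h2bc 62.3, 65.0 and 9.51 CPM. Copies such as Hist2h2aa1 and Hist2h2aa2 are nearly identical, so the estimated counts of single copies are uncertain.

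The highest ratio of all belonged to Gm21969, a predicted gene that the naming rule leaves out and that is given here after its value was seen. It had 0.107 CPM in the control, 15.1 at 3 h and 13.4 at 24 h, on 2 counts in the control and 322 at 24 h, and so already stood apart at 3 h. Rps13-ps2, a processed pseudogene, had 18.5, 3.58 and 0 CPM, which is at least 148-fold lower at 24 h when 3 counts are set for the 0. Reads of such genes cannot always be told from those of their parent genes.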
